A study of Canis lupus familiaris with 36 samples.

Results

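SQLE encodes squalene epoxidase, also called squalene monooxygenase, and is 1 gene of the 30424 in the count table of CLBL-1, a line of canine B-cell lymphoma. It was identified as ENSCAFG00000001056 through pairs of Ensembl identifier and gene symbol. These were read from the parts of the study's supplement that were at hand, and cover 1068 genes. CLBL-1 cells were incubated with DMSO only, with 1 µM of the BTK inhibitor Ibrutinib (Ibr), with 5 µM of the PI3Kγ inhibitor AS-605240 (AS) or with both (Ibr + AS) for 24, 48 or 72 h. Each of these 12 groups held 3 libraries, 1 each from the passages p121, p126 and p128 (replicates 1 to 3), and all groups contained the solvent DMSO, which the control group received at the concentration of the combined treatment. The 36 libraries are therefore separate cultures of 1 cell line. The study's methods do not give the DMSO concentration of the single-inhibitor groups. Comparisons that use those groups may include a difference in solvent, which was not tested. With passage as a block, differences between passages are taken out. The tests then rest largely on a spread between libraries that is shared over genes, and not on that of SQLE alone. The comparisons ask how SQLE responded to each inhibitor, whether the combination differed from what the single inhibitors gave, and how the level moved with incubation time in the control.

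Cholesterol is built from acetyl-CoA through mevalonate and farnesyl diphosphate, and squalene epoxidase adds oxygen to squalene, the first step of the pathway that is specific to sterols and needs oxygen. Together with HMG-CoA reductase it limits the flux through the pathway. Its transcription is driven by SREBP2, a membrane-bound factor released to the nucleus when membrane cholesterol is low, and lymphocytes use the pathway to supply membrane sterol during growth.

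Total counts per library ranged from 9941919 to 14703839, with a median of 11888025. SQLE received between 2993 and 15741 reads per library, or 0.0247% to 0.119% of all counts, so that its counting error (the square root of the count over the count) was between 0.797% and 1.83%. Of the B-cell markers, 3 of 9 could be paired with an identifier, and all 3 were present in every library, with DLA-DRA between 2090 and 4720 counts scaled to library size (CPM), DLA-DMA between 315 and 569 CPM, and the BAFF receptor gene TNFRSF13C between 70.6 and 305 CPM. CD79A, MS4A1 and PAX5 were not analysed here. The paired markers of T and NK cells, IL2RB, CD226 and IFNG, had at most 1, 7 and 1 counts, and the myeloid marker TREM2 at most 1. LYZ, the other myeloid marker, was present at 65.5 to 311 CPM. Of the epithelial markers, GRHL2 had at most 4 counts and ESRP1 lay between 13.8 and 24.2 CPM.

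In the DMSO control, SQLE increased between 24 h and 48 h and then stayed at that level. At 24 h the libraries of passages p121, p126 and p128 held 764, 660 and 686 CPM. At 48 h they held 935, 1078 and 1101 CPM, and at 72 h 1074, 1130 and 1009 CPM. All 6 later control libraries were above the 3 libraries of 24 h, whereas those of 48 h and 72 h overlapped. Relative to 24 h, the log2 FC was 0.55 (SE 0.067) at 48 h and 0.57 (SE 0.067) at 72 h, which is 1.47-fold and 1.49-fold higher, with adjusted p-values of 3.7e-14 and 3.1e-16 (quasi-likelihood test of edgeR, Benjamini-Hochberg adjustment over 16468 genes). Of all genes tested, 5.91% were higher at 48 h and 18.5% at 72 h by the same limit of 0.05. From 48 h to 72 h the difference was 0.04 on the log2 scale, with a 95% interval from -0.15 to 0.23 and an adjusted p of 0.891 in the fit of 35 libraries (edgeR).

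With Ibr + AS, SQLE was lower than in any other group at every incubation time. At 24 h the 3 libraries held 279, 295 and 256 CPM, in the order of passages p121, p126 and p128. At 48 h they held 330, 308 and 301 CPM, and at 72 h 418, 363 and 350 CPM. The highest of these 9 values lay below the lowest of the other 27 libraries, which was 503 CPM (Ibr 24 h, passage p126). These are bulk libraries, in which fewer cells with SQLE RNA and less SQLE RNA per cell cannot be told apart. LYZ, 1 of the 2 paired myeloid markers of 5 listed, moved with these groups, at 211 to 311, 167 to 192 and 137 to 171 CPM with Ibr + AS against 76.4 to 92.1, 65.5 to 82.2 and 89.2 to 115 CPM with DMSO at 24, 48 and 72 h, while TREM2 stayed at 0 or 1 counts. With Ibr alone LYZ was at 133 to 158 and 137 to 164 CPM at 24 h and 48 h, also above DMSO, and its mean at 72 h was 110 ± 17.9 CPM (SD, n = 3). With AS alone it was at 87.4 to 97.8, 83.2 to 96.7 and 81.2 to 93.2 CPM. Whether LYZ came from the CLBL-1 cells themselves or from other cells, and how it relates to the SQLE values, was not tested.

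With either inhibitor alone, the level was intermediate at 24 h and 48 h and close to the control at 72 h. AS gave 526, 569 and 529 CPM at 24 h, 712, 704 and 671 CPM at 48 h, and 1162, 930 and 892 CPM at 72 h. Ibr gave 505, 503 and 547 CPM at 24 h, 546, 773 and 579 CPM at 48 h, and 928, 826 and 1052 CPM at 72 h. All single-inhibitor libraries of 24 h and 48 h were below the DMSO libraries of the same time, while at 72 h AS overlapped with DMSO. The last Ibr value at 72 h, from passage p128, is the one that overlapped with DMSO at that time. It belongs to the library that the study left out as an outlier. That library entered none of the tests below, except in the fits with all 36 libraries and in those without passage p121 or p126.

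**Figure D1:**
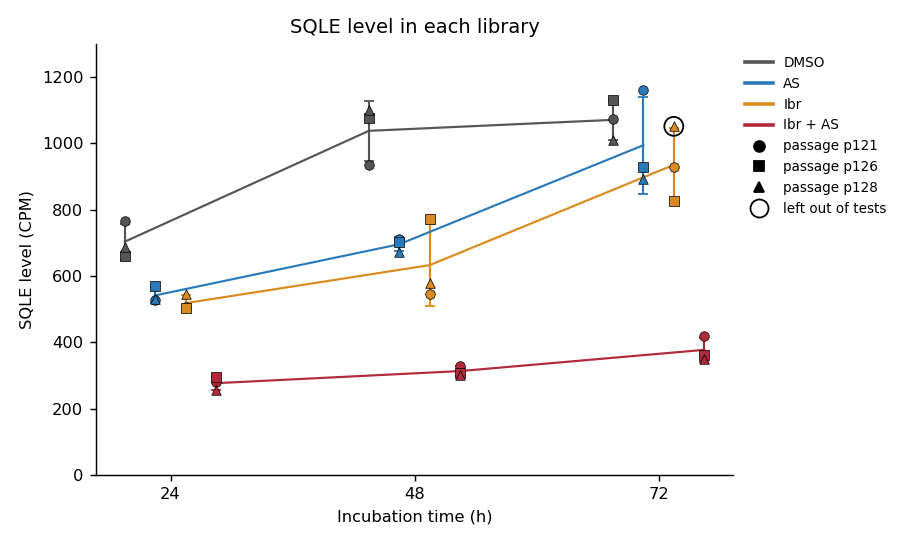
SQLE level in CPM (y axis) against incubation time in h (x axis) for each of the 36 libraries, shifted sideways by treatment, with lines through the group means and bars of 1 SD (n = 3, the library left out of the tests included). The 9 Ibr + AS libraries sit between 256 and 418 CPM, and the other libraries lie between 503 and 1162 CPM.

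Ordered by group mean, the 12 groups rose from 277 ± 19.5 CPM (SD, n = 3) with Ibr + AS at 24 h to 1071 ± 60.3 CPM with DMSO at 72 h. The ranges of Ibr + AS at 24 h, 48 h (313 ± 14.8 CPM) and 72 h (377 ± 36.5 CPM) and of Ibr at 24 h (518 ± 24.8 CPM) followed each other without overlap. From Ibr at 24 h over AS at 24 h (541 ± 24.0 CPM), Ibr at 48 h (633 ± 123 CPM) and AS at 48 h (696 ± 21.5 CPM) to DMSO at 24 h (704 ± 54.2 CPM), each group overlapped with the next. A gap separated DMSO at 24 h from Ibr at 72 h (935 ± 113 CPM), and above it AS at 72 h (994 ± 146 CPM), DMSO at 48 h (1038 ± 89.8 CPM) and DMSO at 72 h again overlapped in turn. Over all libraries the highest level was 4.54 times the lowest.

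Against the DMSO group of each time, SQLE was a DEG (adjusted p of at most 0.05 and absolute log2 FC above 1) with Ibr + AS only, and at all 3 times. The log2 FC was -1.36 (SE 0.0989, adjusted p = 3.9e-22) at 24 h, -1.72 (SE 0.0998, adjusted p = 2.1e-28) at 48 h and -1.49 (SE 0.0990, adjusted p = 8.2e-25) at 72 h (quasi-likelihood test of edgeR, Benjamini-Hochberg adjustment over 18670 genes). The level thus fell to 39.1%, 30.4% and 35.5% of the control, with 95% intervals of 34.1% to 44.7%, 26.5% to 34.9% and 31% to 40.7%. By adjusted p alone, 17%, 15.3% and 14.5% of all genes were lower at these times, and 2.09%, 2.82% and 4.3% were DEGs in that direction. Among the 10785 genes that averaged 1 CPM or more, 1.22%, 1.09% and 2.39% had a log2 FC below that of SQLE.

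Ibr alone lowered SQLE by a smaller amount. The log2 FC was -0.45 (SE 0.0971, adjusted p = 5.4e-04) at 24 h and -0.69 (SE 0.0972, adjusted p = 2.4e-08) at 48 h in edgeR's test, where 3.79% and 4.94% of all genes were lower. These values correspond to 73.3% and 61.8% of the control. At 72 h the log2 FC was -0.31 (SE 0.110, adjusted p = 0.0381, edgeR), with 9.26% of all genes lower. This last call was lost when passage p121, p126 or p128 was left out, at -0.18, -0.073 and -0.30 with adjusted p of 0.266, 0.784 and 0.0824, and also with all 36 libraries (-0.19, adjusted p = 0.193) or without the passage block (-0.28, adjusted p = 0.0841). The fits without p121 or p126 also held the Ibr 72 h library of passage p128, so they differ from the main fit in more than the dropped passage.

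AS alone gave a log2 FC of -0.38 (SE 0.0970, adjusted p = 0.0150) at 24 h and -0.55 (SE 0.0970, adjusted p = 2.1e-05) at 48 h in the same edgeR fit, where 1.04% and 2.1% of all genes were lower. SQLE was at 77.0% and 68.1% of the control at these times. Without the libraries of passage p121 the value at 24 h was -0.30 (adjusted p = 0.102, edgeR), and without those of passage p128 it was -0.41 (adjusted p = 0.0773). At 72 h the log2 FC was -0.09, with a 95% interval from -0.28 to 0.10 and an adjusted p of 0.675 (edgeR). All comparisons at 1 incubation time share the same 3 DMSO libraries, so the values of the 3 treatments are not independent of each other.

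The sequencing run is not stated in the labels and was inferred from numbers in the column names. By this inference, which no label could check, a first and a second run held 18 libraries each. Passage p121 would lie wholly in the first run and passage p128 wholly in the second. Every ratio to DMSO within those passages would then be within the run. In passage p126 only the ratios of AS and Ibr + AS at 48 h would cross runs, with DMSO at 48 h in the first run. The inferred run was added as a further term, an alternative chosen after the data had been seen. The log2 FC of Ibr + AS against DMSO was then -1.36, -1.68 and -1.50 at 24, 48 and 72 h.

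**Figure D2:**
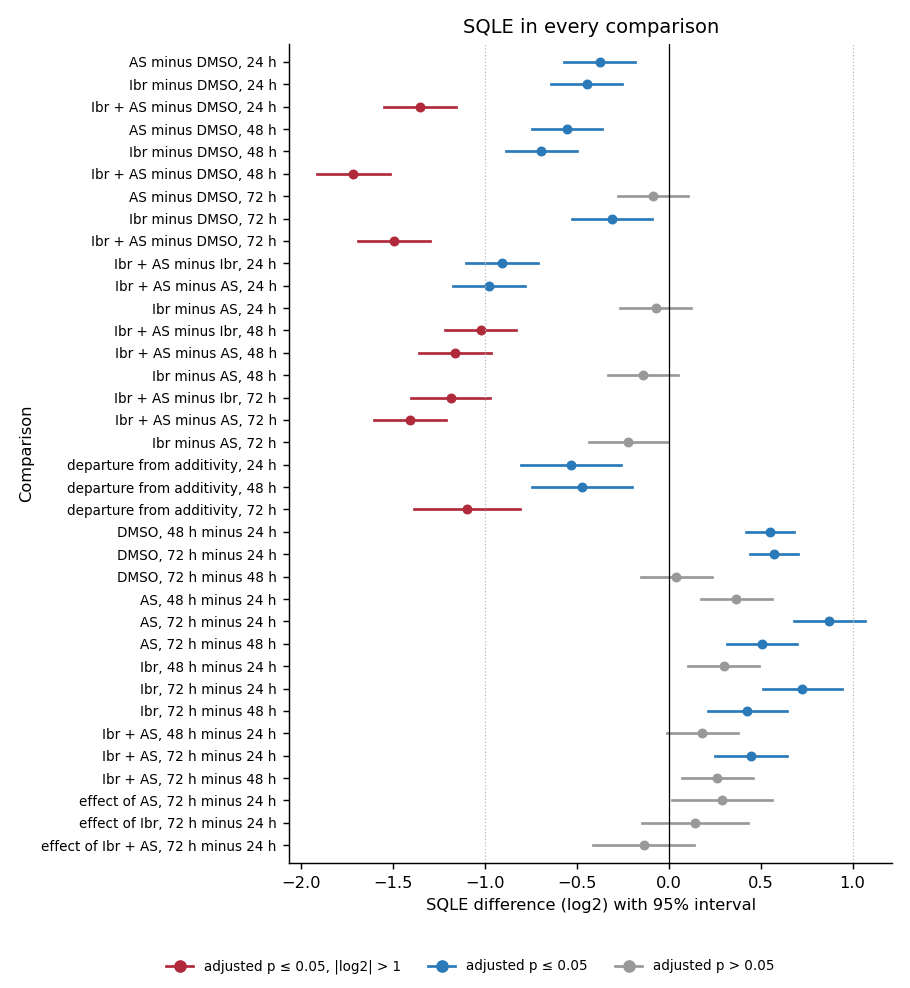
SQLE difference on the log2 scale (x axis) for each of the 36 comparisons (y axis), with bars of the unadjusted 95% interval and colours by the adjusted p of edgeR. The 9 differences that involve Ibr + AS and a single treatment or DMSO all lie between -0.91 and -1.72, and dotted lines mark the DEG limits of -1 and 1.

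The combination was also compared with each inhibitor alone. Against Ibr, SQLE was lower with Ibr + AS by a log2 FC of -0.91 (SE 0.0982, adjusted p = 2.1e-12) at 24 h, -1.02 (SE 0.0984, adjusted p = 2.2e-14) at 48 h and -1.19 (SE 0.108, adjusted p = 1.0e-15) at 72 h in edgeR's test. Against AS it was lower by -0.98, -1.16 and -1.41, with adjusted p of 2.2e-14, 7.1e-18 and 2.4e-22 (edgeR). The shares of all genes that were lower were 9.38%, 10.2% and 3.24% against Ibr and 12.3%, 14.4% and 8.25% against AS. At 48 h and 72 h SQLE passed the DEG limit in both comparisons, with 0.696% and 0.927% of all genes lower DEGs against Ibr and 1.61% and 1.82% against AS, and at 24 h in neither. The DEG status against Ibr at 48 h was lost without the libraries of passage p126 (-0.84) and with the inferred sequencing run as a further term (-0.98).

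Ibr and AS were not called different from each other at any time. The difference of Ibr less AS was -0.07 at 24 h (95% interval -0.26 to 0.12, adjusted p = 0.977), -0.14 at 48 h (-0.33 to 0.05, adjusted p = 0.752) and -0.22 at 72 h (-0.437 to -0.002, adjusted p = 0.436) in edgeR's test. At 72 h the p of that test before adjustment over all genes was 0.0475. Without passage p121 the sign at 72 h turned, to 0.047, in a fit that also held the Ibr 72 h library of passage p128. The interval leaves room for a level with Ibr between 73.9% and 99.8% of that with AS at 72 h.

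Departure from additivity was the log2 FC of Ibr + AS less the sum of those of Ibr and AS, so that a negative value means a level below the product of the single effects. It was -0.53 (SE 0.138, adjusted p = 0.0102) at 24 h, -0.47 (SE 0.137, adjusted p = 0.0109) at 48 h and -1.10 (SE 0.145, adjusted p = 1.3e-08) at 72 h (quasi-likelihood test of edgeR, Benjamini-Hochberg adjustment). Of all genes, 2.02%, 7.6% and 4.06% departed in the same direction, and 1.13% did so past the DEG limit at 72 h, as SQLE did. The value at 24 h was -0.38 without passage p128 (adjusted p = 0.356, edgeR) and that at 48 h was -0.29 without passage p126 (adjusted p = 0.266), while the value at 72 h passed the limit under every alternative tried, between -1.34 and -1.07. The departure sets 4 groups against each other, so its SE is larger than that of a single comparison. It refers to the log2 scale, and a departure from the sum of the losses in CPM was not tested. At 48 h the group means were 1038 CPM with DMSO, 696 CPM with AS, 633 CPM with Ibr and 313 CPM with Ibr + AS.

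Ratios within each passage come from the same counts as the fit, so they describe the departure and are not a separate test of it. At 24 h SQLE with Ibr + AS stood at 36.5%, 44.7% and 37.3% of DMSO in passages p121, p126 and p128, against products of the single ratios of 45.5%, 65.6% and 61.4%. At 48 h the ratios were 35.3%, 28.6% and 27.4%, against products of 44.5%, 46.9% and 32.1%. At 72 h they were 39.0% and 32.1% in passages p121 and p126, against products of 93.5% and 60.2%, and in passage p128, whose product of 92.0% rests on the library left out of the tests, the ratio was 34.7%. The measured ratio was below the product in all of these sets. Averaged over passages, Ibr + AS gave 39.5% ± 4.51, 30.4% ± 4.25 and 35.2% ± 3.47 of DMSO (SD, n = 3) at 24, 48 and 72 h.

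**Figure D3:**
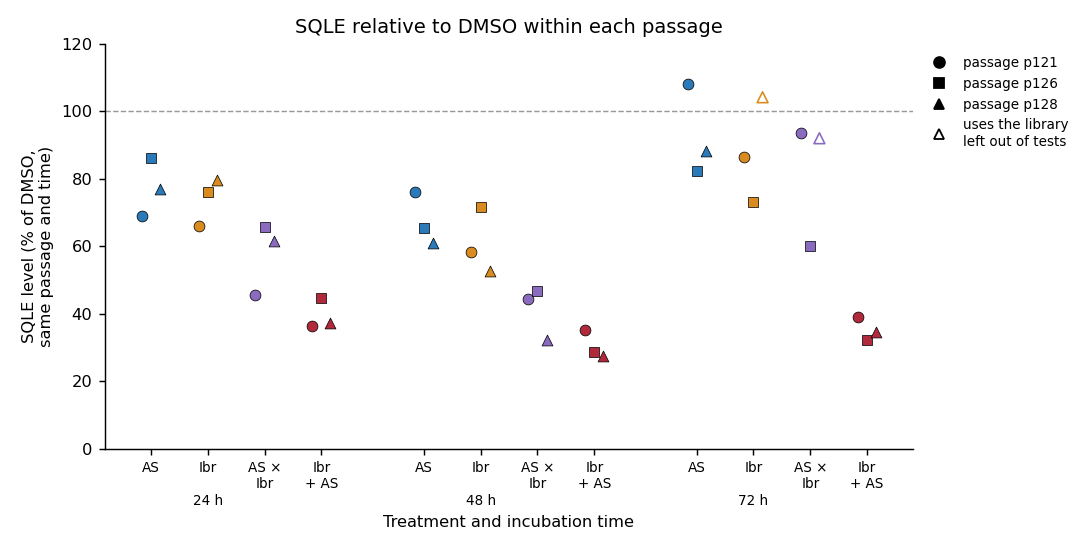
SQLE level as a percentage of DMSO of the same passage and time (y axis) for AS, Ibr, the product of both single ratios (AS × Ibr) and Ibr + AS at each incubation time (x axis), with 1 point per passage and open symbols where the library left out of the tests is used. Within each passage the Ibr + AS point lies below the product, and at 72 h the products are between 60.2% and 93.5% while Ibr + AS is between 32.1% and 39.0%.

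Over time, SQLE rose in the treated cells as well, from lower starting levels. With AS the log2 FC from 24 h to 72 h was 0.87 (SE 0.0975, adjusted p = 9.2e-12), and from 48 h to 72 h it was 0.51 (SE 0.0970, adjusted p = 1.7e-04), where 3.93% and 1.98% of all genes were higher (edgeR). With Ibr the corresponding values were 0.73 (SE 0.108, adjusted p = 3.6e-07) and 0.43 (SE 0.108, adjusted p = 0.0181), where 2.35% and 0.905% of all genes were higher (edgeR). With Ibr + AS the log2 FC from 24 h to 72 h was 0.45 (SE 0.0979, adjusted p = 5.8e-04), with 4.32% of all genes higher. This call was lost in a fit on the Ibr + AS groups only (0.45, adjusted p = 0.0528, edgeR). The log2 FC from 48 h to 72 h was 0.26 (adjusted p = 0.164, edgeR).

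Between 24 h and 48 h none of the treated groups passed the limit. The log2 FC was 0.37 with AS (adjusted p = 0.0678), 0.30 with Ibr (adjusted p = 0.225) and 0.18 with Ibr + AS (adjusted p = 0.652) in edgeR's test. For AS the adjusted p was 0.041 with the inferred sequencing run as a further term and 1.8e-07 in a fit on the AS groups only, and for Ibr it was 0.0443 without passage p121. The larger part of the rise in the control lay before 48 h, in the fit of the DMSO libraries alone. With the single treatments only the later step passed the limit in the fit of 35 libraries. The 95% intervals of the earlier and later steps overlapped, at 0.17 to 0.56 and 0.31 to 0.70 with AS and at 0.11 to 0.49 and 0.21 to 0.64 with Ibr. Whether these steps differed was not tested.

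Whether a treatment effect changed between 24 h and 72 h was tested as a contrast of effects. The effect of AS at 72 h less that at 24 h was 0.29 (95% interval 0.02 to 0.56, adjusted p = 0.215), that of Ibr 0.14 (-0.15 to 0.43, adjusted p = 0.664) and that of Ibr + AS -0.14 (-0.41 to 0.13, adjusted p = 0.575) in edgeR's test. None passed the limit, although the effect of AS was called at 24 h and not at 72 h. In a fit on the groups compared only, the contrast for AS had an adjusted p of 0.0488.

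The genes of the same pathway were read from fixed lists, of which few members could be paired with an identifier. Of 22 enzymes of mevalonate and sterol synthesis, SQLE and ACAT2 were paired, and the others were not analysed here. ACAT2 encodes the cytosolic acetyl-CoA acetyltransferase that joins acetyl-CoA units at the entry of the pathway. In DMSO it rose from 230 ± 21.6 CPM at 24 h to 529 ± 46.6 CPM at 48 h and 523 ± 24.1 CPM at 72 h (SD, n = 3), and with Ibr + AS it was at 116 ± 4.05, 140 ± 4.35 and 160 ± 22.6 CPM. The 2 sets of ranges did not overlap at any time. Its log2 FC against DMSO with Ibr + AS was -0.99, -1.90 and -1.70 at 24, 48 and 72 h, with adjusted p of 1.0e-16, 8.2e-36 and 2.2e-32 (edgeR).

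ACAT2 and SQLE differed in how the single inhibitors compared with the combination. At 48 h ACAT2 fell by 1.14 with AS and by 1.46 with Ibr on the log2 scale, whereas SQLE fell by 0.55 and 0.69. The departure from additivity of ACAT2 was 0.70 at 48 h (adjusted p = 3.9e-05, where 5.99% of all genes were positive), opposite in sign to the -0.47 of SQLE, and -0.67 at 72 h (adjusted p = 2.9e-04), the same sign as the -1.10 of SQLE (edgeR). At 24 h it was -0.15 (adjusted p = 0.733). The difference between the departures of both genes was not tested. Against DMSO ACAT2 was called lower in all 9 treatment comparisons, of which AS at 24 h (-0.33) was lost without passage p121 or p128 (adjusted p = 0.0960 and 0.343, edgeR), without the passage block (0.0718) and with all 36 libraries (0.170). Its call for Ibr at 72 h (-0.62) was lost without passage p126 (-0.13, adjusted p = 0.609, edgeR), in a fit that also held the Ibr 72 h library of passage p128.

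Of 19 genes of sterol sensing and SREBP control, 3 were paired, namely SREBF2, NFYA and ERLIN1. SREBF2, which encodes SREBP2, moved in the direction of SQLE at a smaller amplitude in DMSO over time and with Ibr + AS. In DMSO it rose by 0.46 and 0.41 on the log2 scale at 48 h and 72 h (adjusted p = 1.1e-09 and 5.9e-09, edgeR), and with Ibr + AS it was lower by -0.28, -0.61 and -0.43 at 24, 48 and 72 h (adjusted p = 0.00994, 1.1e-08 and 4.9e-05, edgeR). The first of these was -0.17 without passage p121 (adjusted p = 0.210). With the single inhibitors it was called lower at 48 h alone (-0.38 with AS and -0.45 with Ibr). At 24 h its values were -0.02 with AS and -0.07 with Ibr, where SQLE was called lower with both. The departure from additivity of SREBF2 was -0.18, 0.22 and -0.36 at 24, 48 and 72 h (adjusted p = 0.615, 0.304 and 0.0802, edgeR). NFYA, a subunit of the factor NF-Y that binds beside SREBP at sterol genes, was called in none of the 9 treatment comparisons. ERLIN1, a membrane protein that takes part in the regulated decay of HMG-CoA reductase, was called higher at 72 h with Ibr (0.34, with 8.36% of all genes higher) and with Ibr + AS (0.28), and both calls were lost when any 1 passage was left out.

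The list of isoprenoid branches and sterol electron supply had 3 of 12 genes paired. CYB5A, the microsomal cytochrome b5 that passes electrons to sterol and fatty acid enzymes, was lower with Ibr + AS by -0.36, -0.60 and -0.51 at 24, 48 and 72 h (adjusted p = 0.00285, 4.8e-07 and 2.1e-05, edgeR), of which the first was -0.33 without passage p128 (adjusted p = 0.0767). NUS1, a subunit of the enzyme that makes dolichol, was lower with Ibr + AS at 24 h (-0.66) and 48 h (-0.60), and its value was 0.10 at 72 h (adjusted p = 0.581, edgeR). CYB5R3, the reductase of cytochrome b5, was not called with Ibr + AS at any time. For these 3 lists together, 4 of the 7 genes other than SQLE were called lower with Ibr + AS at 24 h, 4 at 48 h and 3 at 72 h, next to the 17%, 15.3% and 14.5% of all genes given above.

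**Figure D4:**
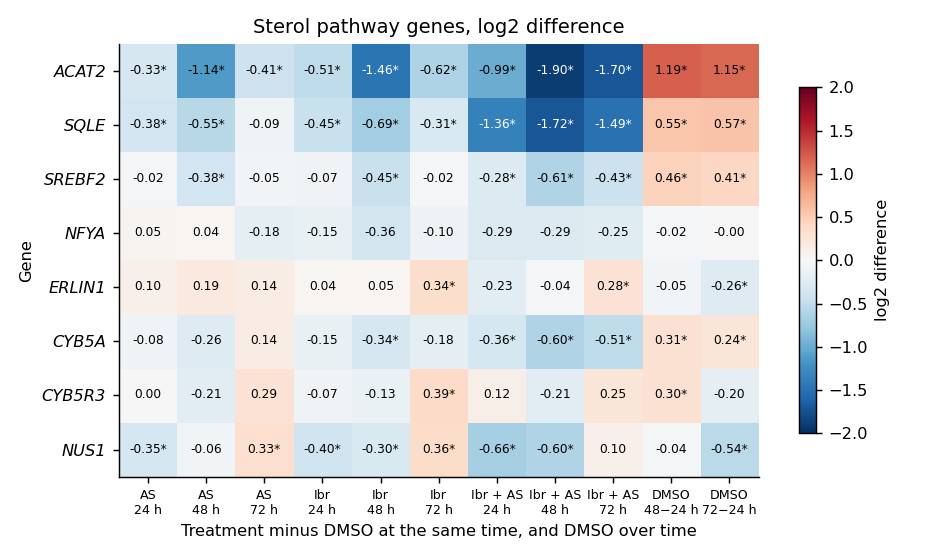
Log2 difference (colour and printed value) of the 8 paired sterol pathway genes (rows) for each treatment against DMSO of the same time and for DMSO at 48 h and 72 h against 24 h (columns), where an asterisk marks an adjusted p of at most 0.05 in edgeR. ACAT2, SQLE, SREBF2 and CYB5A are lower with Ibr + AS at all 3 times and higher in the later DMSO groups, while CYB5R3 and NFYA have no asterisk with Ibr + AS.

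For sterol uptake, transport and efflux, of 19 listed genes 10 were paired, and at 24, 48 and 72 h Ibr + AS gave 3, 3 and 2 genes that were higher beside 0, 2 and 4 that were lower. Of all genes, 17.1%, 15.4% and 14.1% were higher and 17%, 15.3% and 14.5% were lower, so that several of these counts are near the share over all genes. GRAMD4 was higher at each time (0.98, 0.92 and 0.94), as was APOL6, an apolipoprotein L gene of a family with close copies (1.51, 1.09 and 0.81). TSPO, an outer mitochondrial membrane protein that binds cholesterol, was lower at 48 h (-0.44, and -0.27 with an adjusted p of 0.162 without passage p121) and 72 h (-1.04), and TTC39B, a regulator of LXR turnover, at 72 h (-1.68). At 72 h TSPO and TTC39B were also lower with AS (-0.45 and -1.89) and with Ibr (-1.03 and -1.98). In DMSO their means rose from 23.1 and 3.55 CPM at 48 h to 40.4 and 10.2 CPM at 72 h. LRP1, an endocytic receptor for lipoproteins, was called lower at 48 h and 72 h, but it had between 1 and 28 counts per library, and the call at 72 h was lost without passage p121 (adjusted p = 0.110, edgeR). The median log2 FC of the list was -0.02, -0.05 and 0.07, beside 0.03, 0.01 and 0.00 over all genes.

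For lipid droplets and fatty acid metabolism, 12 of 17 genes were paired. With Ibr + AS the number that rose was 6 at 24 h, 4 at 48 h and 2 at 72 h, and the number that fell was 2, 1 and 2. Of all genes, 17.1%, 15.4% and 14.1% were higher and 17%, 15.3% and 14.5% lower at these times, and the numbers that fell are near or below those shares. AGPAT1, an acyltransferase of phospholipid synthesis, was higher at each time (0.71, 0.80 and 0.67), and PLIN2, a coat protein of lipid droplets, at 24 h (0.51) and 48 h (0.23), of which the latter was lost when any 1 passage was left out (adjusted p from 0.151 to 0.274, edgeR). MCAT, a mitochondrial enzyme of fatty acid synthesis, was lower at each time (-0.40, -0.54 and -0.48), with adjusted p of 0.0785 and 0.0738 at 24 h without passage p126 or p128 and 0.0846 at 72 h without p128 (edgeR). The median of this list was 0.35, 0.29 and 0.16 at 24, 48 and 72 h, beside 0.03, 0.01 and 0.00 over all genes. It includes PNPLA3, with 2 to 20 counts per library, and PPARA, with 0 to 10. At 24 h and 48 h several paired genes of the list were higher where SQLE, ACAT2 and SREBF2 were lower. At 72 h the number that rose was near the share over all genes, and the listed genes without a pair were not analysed here.

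The genes around SQLE were looked up in the RefSeq annotation of another assembly (UU_Cfam_GSD_1.0), which was used for names and order only. Of 13 other protein-coding genes that start within 1 Mb of SQLE, 7 were paired. With Ibr + AS, MTSS1, an actin and membrane binding protein, was higher by 3.87, 2.87 and 1.54 on the log2 scale at 24, 48 and 72 h (adjusted p = 5.7e-20, 2.5e-16 and 5.1e-09, edgeR), where SQLE fell by 1.36, 1.72 and 1.49. WASHC5, a subunit of the WASH complex and the next protein-coding gene after SQLE, was at -0.34, -0.16 and 0.36, and its values at 24 h and 72 h passed the limit (adjusted p = 6.4e-04 and 4.3e-04, edgeR). The first was lost without passage p121 (adjusted p = 0.0533).

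Of the other neighbours, NDUFB9, a subunit of respiratory complex I, was higher by 0.36, 0.39 and 0.35, of which the first was 0.18 and the last 0.26 without passage p121 (adjusted p = 0.256 and 0.0642, edgeR) and the last 0.22 without p128 (adjusted p = 0.292). FAM91A1 was lower at 24 h and 48 h (both -0.47), and without passage p121 the first was -0.23 (adjusted p = 0.123, edgeR). TRIB1, a pseudokinase, was higher at 24 h (0.69) and lower at 72 h (-1.59), and TATDN1 was lower at 72 h (-0.38). FER1L6 was called lower at 24 h and 72 h (adjusted p = 0.00647 and 0.0173, edgeR) but had at most 15 counts per library, and the first call was lost without passage p126 or p128 (adjusted p = 0.0859 and 0.0714) and the second without p121 or p128 (0.157 and 0.257).

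The genes whose profile was most like that of SQLE were named by the Pearson correlation of the 12 group means of log2 CPM, among paired genes that averaged 1 CPM or more. They were CHCHD3 (r = 0.96), BEND4 (0.96), RBFOX2 (0.96), CYB5A (0.95) and PHACTR2 (0.95). ACAT2 had r = 0.94 and SREBF2 r = 0.90. Among all 10784 genes compared, 377 had r over 0.9 and 248 had r under -0.9, and CHCHD3 ranked 52nd, so that genes without a symbol here were closer to SQLE. The 12 means share their libraries and depth, and the values are given as a description.

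The most opposite profiles among paired genes were those of PPP1R18 (r = -0.96), GPSM3 (-0.95), TNFRSF13C (-0.95), PYM1 (-0.94) and SLC66A2 (-0.94). TNFRSF13C was lowest with DMSO at 72 h (75.5 CPM) and highest with Ibr + AS at 24 h (283 CPM), the groups in which SQLE was highest and lowest. With rlog values the same 5 genes were named on either side. With the 35 single libraries in place of group means, CHCHD3 was the only gene of the first 5 named again, beside ACAT2, CDK2, MTAP and NEDD4L, and 3 of the 5 opposite genes were.

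**Figure D5:**
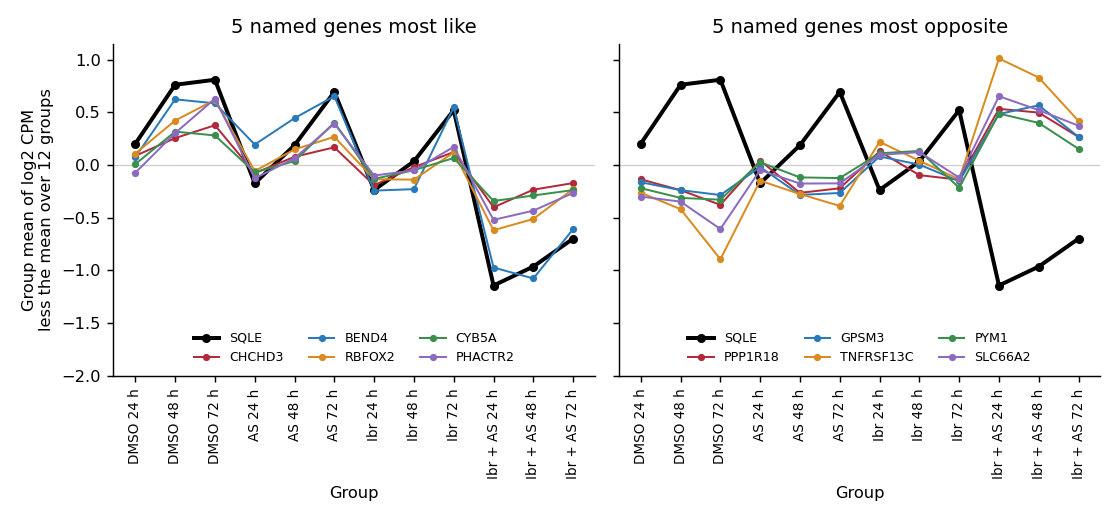
Group mean of log2 CPM less the mean over the 12 groups (y axis) by group (x axis) for SQLE (black) and the 5 paired genes most like it (left) and most opposite to it (right), with lines joining the groups for reading only. SQLE, CHCHD3, RBFOX2, CYB5A and PHACTR2 are lowest with Ibr + AS at 24 h, and the 5 opposite genes are highest with Ibr + AS at 24 h or 48 h.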

How the data were processed

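RNA-seq libraries of CLBL-1 cells were analysed from 1 table of raw counts per Ensembl gene, which the authors made with STAR 2.7.5a on CanFam3.1 and deposited without normalization. Builds and tools were read from the submitters' processing notes and the study's methods, and the strand column kept is not given in the sources used here. For DMSO 24 h replicate 3 the title names p126 and the passage field p128, of which the latter was used. The restriction of the study to protein-coding genes was not applied.

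R 4.3.3 was used with edgeR 4.0.16 and limma 3.58.1. DESeq2 1.42.0 served for rlog values and as an alternative test. A gene entered a fit with 2 or more reads over its libraries. Factors were computed by TMM, and robust quasi-likelihood fits had passage number and group as terms. As in the study, Ibr 72 h replicate 3 was left out, which gave 35 libraries and 18670 genes. The 9 DMSO libraries were fitted alone for 48 h and 72 h against 24 h, with 16468 genes. The spread of each gene was moderated by that of the other genes. For SQLE this gave 97.85 degrees of freedom in the fit of 35 libraries and 65870 in that of the DMSO libraries. Its p-values therefore rest largely on the spread shared over genes. P-values were adjusted over all genes of a fit, separately for each of the 36 comparisons. Levels are TMM-scaled CPM of 36 libraries, and a prior count of 1 was added for log2 CPM. Counting errors cover the sampling of reads only. Levels were not compared between genes, since no gene lengths were used.

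The passages are named in the labels, and libraries of 1 number come from the same passage of the line, so the passage number was kept as a block. As a check, deviations from the group means were correlated between libraries of different groups over 10785 genes. The median r was 0.0931 for the same passage (187 pairs) and -0.034 for different passages (374 pairs). The biological coefficient of variation of SQLE was 9.06%.

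The genes named were SQLE, every paired gene of the lists, the paired genes within 1 Mb, and the 5 paired genes most and least like SQLE. SQLE and the lists were chosen with earlier results of these data known. The RefSeq table holds 43286 genes and 0 Ensembl identifiers. The fits were tested on simulated counts.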

Additional observations from a re-analysis of the deposited data

Results flagged for a closer look

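The log2 effect of Ibr + AS on SQLE was set against the sum of the log2 effects of Ibr and AS. The difference passed edgeR's test at every incubation time. A departure from the sum of the losses in CPM was not tested. On the log2 scale the departure was -0.53 at 24 h, -0.47 at 48 h and -1.10 at 72 h, with adjusted p of 0.0102, 0.0109 and 1.3e-08. Over all alternatives the value at 24 h lay between -0.64 and -0.38, that at 48 h between -0.52 and -0.29 and that at 72 h between -1.34 and -1.07. The call at 24 h was lost without passage p128 (adjusted p = 0.356, edgeR) and that at 48 h without passage p126 (0.266), while that at 72 h held under every alternative tried. The cause of the departure was not tested.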

How the results depend on the processing

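Of 432 values of SQLE in 36 comparisons, 416 kept their direction and side of the limit under the alternatives, and 26 comparisons did so throughout. Leaving out 1 passage in turn, Ibr 72 h replicate 3 put back where passage p121 or p126 was left out, moved AS against DMSO at 24 h between -0.45 and -0.30, Ibr against DMSO at 72 h between -0.30 and -0.073, the departure from additivity between -0.64 and -0.38 at 24 h and between -0.52 and -0.29 at 48 h, and Ibr from 24 h to 48 h between 0.10 and 0.41. Without passage p121 the sign turned for Ibr less AS at 72 h (0.047, range -0.23 to 0.047) and for DMSO from 48 h to 72 h (-0.028, range -0.028 to 0.12), neither of which was called. Without the passage block, in the unpaired fit, Ibr against DMSO at 72 h was -0.28 (adjusted p = 0.0841, edgeR), and no other call of SQLE changed. With all 36 libraries it was -0.19. In fits on the groups compared only, AS from 24 h to 48 h was 0.37 (adjusted p = 1.8e-07) and the change of the AS effect from 24 h to 72 h 0.29 (0.0488), both now past the limit, and Ibr + AS from 24 h to 72 h was 0.45 (0.0528), no longer past it. With the inferred sequencing run as a further term, chosen after the data had been seen, AS from 24 h to 48 h was 0.41 (0.041). Of 108 counts of called genes, 11 moved by over 1.5 times: for AS at 24 h 472 genes became 180 without passage p128, 2285 in the groups-only fit and 790 with DESeq2, for Ibr at 24 h 1704 became 819 without passage p128 and 4098 in the groups-only fit, for AS at 48 h 684 became 377 and 1822, for Ibr at 48 h 1979 became 1292 and 3419, and for AS at 72 h 2466 became 1295 without passage p128 and 1424 without the 4 libraries of that passage at 72 h. Of 198 called values of the other named genes, 119 kept their call under all alternatives and 0 changed sign. The causes were not tested. Counting error of SQLE was at most 1.83%, and its biological coefficient of variation 9.06%.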
